A study of Mus musculus with 6 samples.

Results

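The enzymes, transporters and regulatory subunits of glycolysis, gluconeogenesis and glycogen turnover were read from polyadenylated RNA of mouse liver. The set was given as 35 gene symbols, and all 35 were found among the 22068 symbols of each library. There were 3 libraries from mice labelled Mst1/2 liver-dKO (genotype Mst1-/-; Mst2fl/fl; alb-Cre+/+, called dKO below) and 3 from mice labelled control (Mst1-/-; Mst2fl/fl; alb-Cre-/-), all from C57BL/6 animals aged 6 weeks. Both groups therefore lacked Mst1, and the controls also carried the loxP-flanked Mst2, so the comparison is of livers with and without the albumin-Cre transgene on an Mst1-null background. Albumin-Cre acts in hepatocytes and in precursors that express albumin, and which cells had recombined was not measured.

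Glycolysis splits glucose into pyruvate, and gluconeogenesis runs largely the same reversible steps backwards, with separate enzymes at the irreversible points. Adult hepatocytes release glucose in fasting, store it as glycogen after a meal, and use liver isoforms such as GLUT2 and liver pyruvate kinase. Fetal, proliferating and many extrahepatic cells use other isoforms of the same steps, among them GLUT1, hexokinase 2, aldolase A and pyruvate kinase M2. Mst1 and Mst2, whose genes are Stk4 and Stk3, are Hippo pathway kinases that restrain the coactivators YAP and TAZ.

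Levels are given as RPKM (reads scaled by gene length and by library depth), so levels of different genes can be set side by side per length. A gene was tested if its mean over the 6 libraries was at least 1 RPKM, which kept 11062 genes and 30 of the 35 members. Each log2 change is the dKO mean less the control mean of log2(RPKM + 1), given with its SE, a scale that understates the change of low genes. Tests were limma fits over all tested genes with Benjamini-Hochberg adjustment, and a gene was called at an adjusted p under 0.05. The labels number the replicates but do not call them separate animals, so each p-value reflects only the spread among these 6 samples, part of which may be technical. Feeding state and hour of collection, both of which act on these genes, are not in the labels used here.

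RPKM summed to between 324034 and 352678 in dKO and between 364571 and 368246 in control libraries, with estimated depths of 21.0 to 24.55 M reads in dKO and 16.95 to 24.8 M reads in control libraries. The first principal component of all tested genes, with 67.3% of the variance, placed dKO replicates 1, 2 and 3 at 20.3, 19.2 and 49.0 and control replicates 1, 2 and 3 at -35.7, -27.5 and -25.4. Replicate 3 was thus unlike the rest of the dKO group. The median log2 change of all tested genes was 0.23, and median-ratio scaling moved it by -0.24, so changes are best read against that median. Stk3 had 5.13, 4.25 and 5.32 RPKM in dKO and 6.00, 5.42 and 5.20 RPKM in control libraries, and Stk4 had 5.84, 4.93 and 5.76 RPKM in dKO and 5.50, 4.69 and 4.66 RPKM in control libraries. Gene totals take in exons outside a deletion, so these levels do not check the genotypes. Hepatocyte markers were abundant in both groups, with Alb at 34054 to 37822 RPKM in dKO and 36157 to 46961 RPKM in control. Of 8 pancreatic markers 6 were at 0 in every library, with sums of 1.72 to 2.34 RPKM in dKO and 3.8 to 4.34 RPKM in control, and the 1 tested, Cela1, was lower in dKO (limma adjusted p = 0.00862). Of 7 muscle markers 1 (Myh4) was at 0 in every library and the other 6 were below the level tested, among them Mylpf at 0.271 to 0.497 RPKM in dKO and 0 to 0.153 RPKM in control.

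Of the 30 tested members, 4 rose and 2 fell in dKO liver. Eno1, Slc2a1, Aldoa and Pfkl rose, and Pck1 and Ppp1r3b fell. The 4 increases are 13.3% of the tested members, against 17.8% of all tested genes called higher, and the 2 decreases are 6.67%, against 2.17% of all tested genes called lower. After median-ratio scaling 1 member was higher (Eno1, 3.33%, against 7.86% of all genes) and 3 were lower (Pck1, Ppp1r3b and Gpi1, 10%, against 5.56% of all genes). After quantile normalization 3 were higher (Eno1, Slc2a2 and Pcx, 10%, against 6.57% of all genes) and 0 were lower, against 5.01% of all genes. On the deposited scale, 8 tested members had a positive and 6 a negative log2 change with an unadjusted limma p under 0.05. The same counts over all 11062 tested genes were 3647 and 543. The median log2 change of the tested members was -0.02 before scaling and -0.23 after it, against 0.23 and -0.01 for all tested genes. All dKO libraries lay above all control libraries at 8 tested members (26.7%, against 38.3% of all tested genes) and below them at 3 (10%, against 6.73%). Together the 35 members held 0.506% to 0.587% of the RPKM sum in dKO libraries and 0.562% to 0.669% in control libraries.

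**Figure D1:**
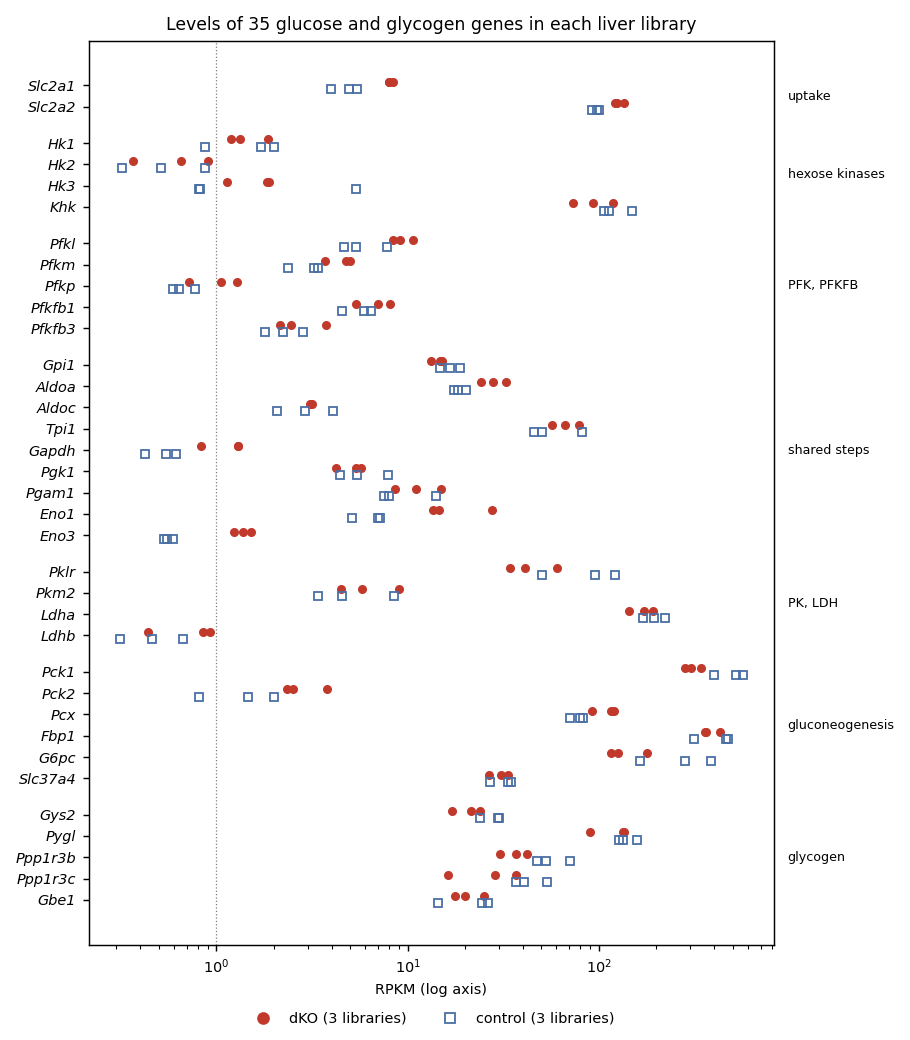
RPKM (log axis) of the 35 members in each library, grouped by role. Filled circles are the 3 dKO libraries and open squares the 3 control libraries of the same gene, and the dotted line marks 1 RPKM. Pck1 lies at 283 to 341 RPKM in dKO and 398 to 566 RPKM in control, while Eno1 lies at 13.6 to 27.5 RPKM in dKO and 5.11 to 7.18 RPKM in control.

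The promoters of 4 of the 6 called members are shown, because YAP acts through TEAD factors while several glycolytic genes are known targets of hypoxia-inducible factor. The sequences are RefSeq's for GRCm38.p6, from 250 bases before to 50 bases after an annotated start, 5′ to 3′ on the gene's strand, and capitals mark the motifs searched. The second of the Eno1 starts (+ strand, chr4:150236947-150237246), the Slc2a1 start (+ strand, chr4:119108495-119108794), the second of the Aldoa starts (- strand, chr7:126799205-126799504) and the Pck1 start (+ strand, chr2:173152823-173153122) read:
Eno1: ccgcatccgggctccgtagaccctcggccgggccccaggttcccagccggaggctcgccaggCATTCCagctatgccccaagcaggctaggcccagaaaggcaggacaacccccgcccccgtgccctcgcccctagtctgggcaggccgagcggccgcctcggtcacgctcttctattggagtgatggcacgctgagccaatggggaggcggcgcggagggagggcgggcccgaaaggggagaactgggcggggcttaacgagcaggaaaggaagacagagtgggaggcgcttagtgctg
Slc2a1: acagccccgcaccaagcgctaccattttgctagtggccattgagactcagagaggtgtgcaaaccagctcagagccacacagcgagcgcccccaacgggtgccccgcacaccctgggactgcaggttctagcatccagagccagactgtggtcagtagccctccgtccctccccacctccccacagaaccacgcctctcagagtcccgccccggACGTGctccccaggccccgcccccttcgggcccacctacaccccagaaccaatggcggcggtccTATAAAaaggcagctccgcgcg
Aldoa: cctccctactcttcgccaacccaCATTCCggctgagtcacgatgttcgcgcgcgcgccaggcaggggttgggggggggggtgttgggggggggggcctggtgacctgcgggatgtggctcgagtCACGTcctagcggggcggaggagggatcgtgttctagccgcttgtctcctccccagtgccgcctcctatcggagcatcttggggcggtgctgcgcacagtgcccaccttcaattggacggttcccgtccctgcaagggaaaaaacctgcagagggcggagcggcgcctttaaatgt
Pck1: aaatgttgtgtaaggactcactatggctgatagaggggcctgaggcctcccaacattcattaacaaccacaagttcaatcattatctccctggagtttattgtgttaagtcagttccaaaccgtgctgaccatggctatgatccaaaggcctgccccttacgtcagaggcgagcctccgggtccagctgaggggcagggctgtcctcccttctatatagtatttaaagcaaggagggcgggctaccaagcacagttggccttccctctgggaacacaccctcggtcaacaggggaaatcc

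Motifs were searched on both strands in 32817 promoters of this length, of which 52 belonged to 33 members (Gys2 and Ppp1r3b had none in the table). GGAATG, a TEAD motif, stood 188 bases before the Eno1 start and 227 bases before the Aldoa start, both on the reverse strand. It was in 5 of 52 member promoters, from 4 of 33 members, and in 14.7% of all promoters. ACGTG, the core of a hypoxia response element, stood 36 bases before the Slc2a1 start on the forward strand and 126 bases before the Aldoa start on the reverse strand. It was in 20 of 52 member promoters, from 17 of 33 members, and in 19.6% of all promoters. The E-box CACGTG, which contains ACGTG on both strands, was in 6 of 52 member promoters (7.15% of all promoters). The cAMP response element TGACGTCA was in 1 member promoter (Ldha, 1.79%) and the forkhead motif TGTTTAC in 1 (Aldoc, 3.65%). TATAAA was in 5 (13.6%), among them Slc2a1 at 28 bases after its start. The Pck1 window and that of Pfkl, which is not shown, held no exact match to a motif searched. Variants were not searched, and the Pck1 window holds ttacgtca, which differs from TGACGTCA by 1 letter. The absence of an exact match is therefore no sign that Pck1 lacks a cAMP response element. Eno1 and Aldoa each had 3 listed starts, and a start with GGAATG was chosen for display. Of the other starts, the third of Eno1, whose window overlaps the one shown, held the same GGAATG, and neither the first of Eno1 nor the other 2 of Aldoa held it. These matches describe letters in a window and are not binding sites, and members with several listed promoters had more chances of a match.

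Glucose enters hepatocytes through GLUT2, the product of Slc2a2, and most other cells through GLUT1, the product of Slc2a1. Slc2a1 measured 7.98, 7.97 and 8.34 RPKM in dKO livers, against 3.95, 5.46 and 4.94 RPKM in control livers. Every dKO library was above every control library, and the dKO libraries were nearly level with each other. Slc2a1 rose 1.69-fold, with a log2 change of 0.66 ± 0.14 (SE) and a limma adjusted p of 0.0143. The Slc2a1 call held without each library in turn (limma adjusted p up to 0.0479), and was lost after median-ratio scaling (log2 change 0.42, limma adjusted p = 0.0527) and quantile normalization (0.0643). Slc2a2 measured 135, 124 and 122 RPKM in dKO and 92.1, 99.7 and 98.3 RPKM in control livers. Its groups did not overlap either, but its log2 change of 0.39 ± 0.14 had a limma adjusted p of 0.0771. Slc2a2 was called after quantile normalization (limma adjusted p = 0.0457) and had a log2 change of 0.11 after median-ratio scaling (limma adjusted p = 0.675), so its place relative to other genes depends on the scaling.

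None of the 3 tested sugar kinases was called by limma, and 0 had an unadjusted p under 0.05. Hexokinases 1 and 3, encoded by Hk1 and Hk3, phosphorylate glucose outside the hepatocyte, and ketohexokinase, encoded by Khk, phosphorylates fructose in the liver. Khk measured 119, 93.6 and 73.1 RPKM in dKO and 113, 149 and 106 RPKM in control livers, and the groups overlapped (log2 change -0.38 ± 0.21, 95% interval -0.86 to 0.11, limma adjusted p = 0.225). Hk1 stood at 1.46 ± 0.346 RPKM in dKO and 1.53 ± 0.588 RPKM in control livers (SD, n = 3 each). Hk3, a hexokinase of myeloid cells, measured 1.89, 1.14 and 1.83 RPKM in dKO and 0.819, 5.38 and 0.814 RPKM in control livers, so that control replicate 2 alone set its control mean. The Hk3 log2 change was 0.51 without control replicate 2 (limma adjusted p = 0.105) and -0.09 with it. That library also had the highest sums among controls of 10 macrophage markers (312 RPKM, against 184 and 153) and of 11 lymphocyte and neutrophil markers (112 RPKM, against 61.1 and 55.1), and the part of these cells in the Hk3 value was not tested. Hk2, the hexokinase of muscle and of growing cells, was below the level tested, at 0.366 to 0.908 RPKM in dKO and 0.321 to 0.866 RPKM in control livers.

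Phosphofructokinase is the committed step of glycolysis and has a liver (Pfkl), a muscle (Pfkm) and a platelet form (Pfkp). Pfkl measured 9.17, 8.33 and 10.6 RPKM in dKO, against 5.38, 7.75 and 4.62 RPKM in control livers. The groups did not overlap, although control replicate 2 came close to the lowest dKO library. Pfkl rose 1.58-fold, with a log2 change of 0.60 ± 0.18 (SE) and a limma adjusted p of 0.0466. Its call was lost without dKO replicate 1, 2 or 3 (limma adjusted p = 0.0991, 0.0617 and 0.141), without control replicate 1 or 3 (0.133 and 0.145), without a filter (0.0845), with a replicate block (0.0734) and after median-ratio scaling (0.155) or quantile normalization (0.149). Pfkm measured 3.70, 4.76 and 5 RPKM in dKO and 2.38, 3.40 and 3.22 RPKM in control livers, without overlap, and had a log2 change of 0.46 ± 0.16 with a limma adjusted p of 0.0763. Pfkp was below the level tested, with 1.06, 0.722 and 1.28 RPKM in dKO and 0.640, 0.772 and 0.590 RPKM in control livers. Pfkfb1, the liver form of the enzyme that makes and degrades fructose-2,6-bisphosphate, stood at 6.81 ± 1.40 RPKM in dKO and 5.65 ± 0.978 RPKM in control livers. Pfkfb3, the inducible form, stood at 2.78 ± 0.837 RPKM in dKO and 2.29 ± 0.533 RPKM in control livers. Neither was called (limma adjusted p = 0.363 for Pfkfb1 and 0.506 for Pfkfb3), and both log2 changes turned negative after median-ratio scaling (-0.02 each) and quantile normalization (-0.05 and -0.16).

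The reversible middle of the pathway serves both directions. Of its 7 tested members 2 rose (Eno1 and Aldoa) and 5 were not called, against 17.8% of all tested genes called higher. After median-ratio scaling 1 was higher (Eno1) and 1 lower (Gpi1), against 7.86% and 5.56% of all tested genes. Eno1, which encodes enolase 1, had the largest change of the 30 tested members. It measured 13.6, 14.5 and 27.5 RPKM in dKO livers, against 5.11, 6.97 and 7.18 RPKM in control livers. All dKO libraries exceeded all control libraries, and dKO replicate 3 was far above the other dKO libraries. Eno1 rose 2.89-fold, with a log2 change of 1.34 ± 0.26 (SE), a 95% interval of 0.74 to 1.94 and a limma adjusted p of 0.013. Without dKO replicate 3 the Eno1 log2 change was 1.03 (limma adjusted p = 0.0128), after median-ratio scaling it was 1.08 (0.0217), and the call was lost without control replicate 1 (log2 change 1.21, limma adjusted p = 0.0547).

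Reads of Eno1 can be shared with Gm5506, the enolase gene that RefSeq calls Eno1b, whose transcript matched an Eno1 transcript at 99.5% identity over 1736 bases. Gm5506 was named after its values were seen. It measured 67.4, 60.0 and 85.1 RPKM in dKO and 37.7, 43.5 and 36.8 RPKM in control livers, several times the Eno1 level in each library. Gm5506 rose 1.80-fold, with a log2 change of 0.82 ± 0.16 (SE) and a limma adjusted p of 0.0128, and stayed called after median-ratio scaling (limma adjusted p = 0.0397). How the authors divided reads between these copies was not given in the sources used here, so the level and the fold of Eno1 alone are uncertain while both entries were higher in dKO.

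Aldoa, the aldolase of muscle, red cells and fetal liver, measured 24.2, 27.9 and 32.5 RPKM in dKO livers, against 18.3, 20.2 and 17.4 RPKM in control livers. The groups were apart. Aldoa rose 1.51-fold, with a log2 change of 0.56 ± 0.14 (SE) and a limma adjusted p of 0.0276. That call was lost without dKO replicate 2 or 3 (limma adjusted p = 0.0598 and 0.0722), without control replicate 1 or 3 (0.0844 and 0.0953), without a filter (0.0503), with a replicate block (0.0556) and after median-ratio scaling (0.141) or quantile normalization (0.0979). Aldoc, the brain aldolase, stood at 3.13 ± 0.0367 RPKM in dKO and 3.01 ± 1.00 RPKM in control livers. Gpi1, which interconverts the hexose phosphates, measured 14.8, 13.2 and 15.2 RPKM in dKO and 18.8, 16.7 and 14.7 RPKM in control livers. It was not called on the deposited scale (log2 change -0.20 ± 0.13, limma adjusted p = 0.298) and was called lower only after median-ratio scaling among the alternatives (log2 change -0.47, limma adjusted p = 0.048).

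Tpi1, Pgk1 and Pgam1, which encode triosephosphate isomerase, phosphoglycerate kinase and phosphoglycerate mutase, had limma adjusted p of 0.51, 0.567 and 0.531, and their groups overlapped. In each of these 3 genes control replicate 2 was the highest control, for Tpi1 at 81.2 RPKM against 50.6 and 45.8 RPKM. Eno3, the muscle enolase, was below the level tested but did not overlap, at 1.51, 1.23 and 1.38 RPKM in dKO and 0.591, 0.549 and 0.530 RPKM in control livers. Without a filter on low values Eno3 had a log2 change of 0.61 ± 0.11 and a limma adjusted p of 0.0269, where 8.48% of 16907 genes were called higher. Gapdh was listed at 1.30, 1.29 and 0.832 RPKM in dKO and 0.421, 0.613 and 0.543 RPKM in control livers, and without a filter its limma adjusted p was 0.0705. Transcripts of 90 other annotated genes shared at least 300 bases with Gapdh at 95% identity or more, so this low value cannot be read as the abundance of Gapdh, nor its use as a loading control be judged here. By the same criterion 10 members had near copies elsewhere, among them Ldha with 4, Pgk1 with 4, Eno1 with 4 and Tpi1 with 1, and the other 25 had none.

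**Figure D2:**
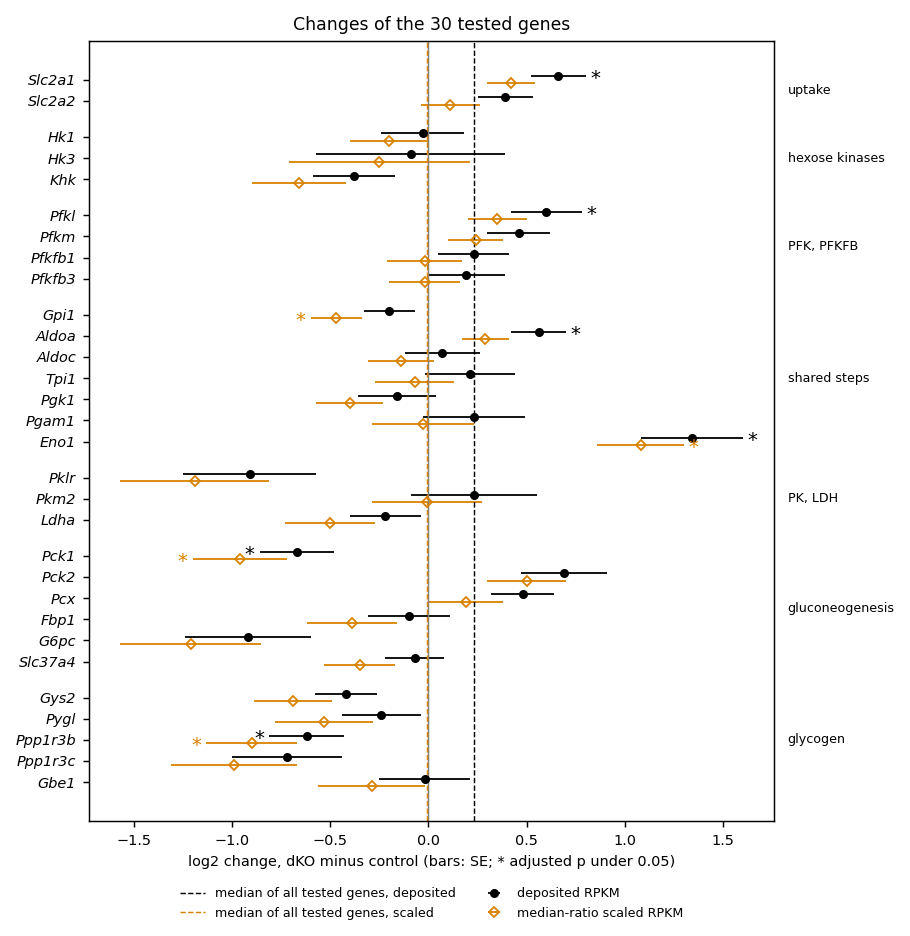
Log2 change (dKO minus control, bars are SE) of the 30 tested members on the deposited scale (black circles) and after median-ratio scaling (orange diamonds). Dashed lines mark the median of all tested genes on each scale (0.23 and -0.01), and an asterisk marks an adjusted p under 0.05. Eno1, Pck1 and Ppp1r3b carry an asterisk on both scales.

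At the pyruvate end, 0 of 3 tested members were called by limma, and 1 (Pklr) had an unadjusted p under 0.05. Pklr encodes the pyruvate kinase of liver and red cells, and Pkm2 stands for the gene of the muscle and fetal forms. Pklr measured 60.4, 41.1 and 34.4 RPKM in dKO livers, against 121, 50.6 and 95.7 RPKM in control livers. Control replicate 2 lay within the dKO range, so the groups overlapped, and the log2 change of -0.91 ± 0.34 (95% interval -1.69 to -0.13) had a limma adjusted p of 0.0906. Leaving out control replicate 2 gave Pklr a log2 change of -1.27 (limma adjusted p = 0.0142), and a replicate block gave a limma adjusted p of 0.0372. Pkm2 measured 5.78, 4.47 and 9 RPKM in dKO and 4.52, 8.44 and 3.40 RPKM in control livers, with full overlap and a limma adjusted p of 0.615. Pkm2 is 1 entry in these files, so the splice forms M1 and M2 cannot be told apart. Ldha, the lactate dehydrogenase subunit that predominates in liver, stood at 169 ± 24.6 RPKM in dKO and 196 ± 25.6 RPKM in control livers (limma adjusted p = 0.4). Ldhb, the heart subunit, was at 0.922 RPKM or less in every library and was not tested.

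Among the genes of glucose production Pck1 fell, and the others were not called. Pck1, the cytosolic phosphoenolpyruvate carboxykinase that responds to glucagon and insulin, measured 341, 303 and 283 RPKM in dKO livers, against 524, 398 and 566 RPKM in control livers. Each dKO library was below each control library. Pck1 fell to 0.623 of its control level, with a log2 change of -0.67 ± 0.19 (SE), a 95% interval of -1.11 to -0.23 and a limma adjusted p of 0.0435. Its call held after median-ratio scaling (log2 change -0.96, limma adjusted p = 0.0402) and without control replicate 2 (0.02). It was lost without dKO replicate 1, 2 or 3 (limma adjusted p = 0.076, 0.0975 and 0.0957), without control replicate 1 or 3 (0.13 and 0.151), without a filter (0.0648), with a replicate block (0.0834) and after quantile normalization (0.12).

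Pck2, the mitochondrial form of the same enzyme, pointed the other way. It measured 2.5, 2.33 and 3.79 RPKM in dKO and 0.814, 1.99 and 1.46 RPKM in control livers, without overlap, and its log2 change of 0.69 ± 0.22 had a limma adjusted p of 0.0599. Without control replicate 2 the Pck2 log2 change was 0.86 (limma adjusted p = 0.0343). Pcx, the pyruvate carboxylase that feeds oxaloacetate into the pathway, measured 116, 120 and 92.2 RPKM in dKO and 71.0, 80.0 and 82.4 RPKM in control livers. Its groups were also apart, with a log2 change of 0.48 ± 0.16 and a limma adjusted p of 0.0636, which was 0.0413 without dKO replicate 3, 0.042 after quantile normalization and 0.522 after median-ratio scaling.

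G6pc, the catalytic subunit of glucose-6-phosphatase that frees glucose for export, measured 179, 126 and 115 RPKM in dKO livers, against 281, 164 and 386 RPKM in control livers. Control replicate 2 again lay inside the dKO range. The G6pc log2 change was -0.92 ± 0.32 (95% interval -1.65 to -0.20, limma adjusted p = 0.0709), and -1.26 if control replicate 2 was left out (0.0131). Slc37a4, the transporter that brings glucose-6-phosphate to that enzyme, stood at 30.3 ± 3.59 RPKM in dKO and 31.8 ± 4.27 RPKM in control livers. Fbp1, the fructose-1,6-bisphosphatase of liver, stood at 384 ± 42.3 RPKM in dKO and 416 ± 87.4 RPKM in control livers. Both had 95% intervals that took in 0 (-0.41 to 0.27 for Slc37a4 and -0.58 to 0.38 for Fbp1).

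Of the 5 glycogen members 1 fell, and all 5 had negative log2 changes on the deposited and the median-ratio scale (medians -0.42 and -0.69). Over all 11062 tested genes 2.17% were called lower and 2642 had a negative log2 change. After median-ratio scaling 5.56% were called lower, and 5415 of 11016 had a positive log2 change. Ppp1r3b, the subunit that directs protein phosphatase 1 to liver glycogen and so activates glycogen synthase, measured 42.3, 37.0 and 30.3 RPKM in dKO livers, against 70.8, 52.9 and 47.3 RPKM in control livers. The groups did not overlap. Ppp1r3b fell to 0.641 of its control level, with a log2 change of -0.62 ± 0.19 (SE) and a limma adjusted p of 0.04996, just inside the threshold. It kept its call after median-ratio scaling (log2 change -0.90, limma adjusted p = 0.0404) and with a replicate block (0.0428), and lost it without any 1 of the 6 libraries: 0.0602, 0.0919 and 0.148 without dKO replicates 1, 2 and 3, and 0.145, 0.0563 and 0.0635 without control replicates 1, 2 and 3. Dropping robust moderation (0.0514), the filter (0.088) or using quantile normalization (0.0605) also ended the Ppp1r3b call.

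Gys2, the liver glycogen synthase, measured 21.4, 23.8 and 17 RPKM in dKO and 30.2, 24.0 and 29.7 RPKM in control livers. The ranges just failed to touch, and the log2 change of -0.42 ± 0.16 had a limma adjusted p of 0.0934. Ppp1r3c, another glycogen-targeting subunit, measured 28.7, 36.7 and 16.2 RPKM in dKO and 40.7, 53.5 and 36.7 RPKM in control livers. Its lowest library was dKO replicate 3, and the log2 change was -0.72 ± 0.28 with all libraries (limma adjusted p = 0.107), -0.40 without that library (0.232) and -0.96 without dKO replicate 2 (0.0491). With a replicate block the Ppp1r3c limma adjusted p was 0.0363. Pygl, the liver glycogen phosphorylase, stood at 119 ± 26.1 RPKM in dKO and 140 ± 17.4 RPKM in control livers (limma adjusted p = 0.401). Gbe1, the branching enzyme, stood at 20.9 ± 3.80 RPKM in dKO and 21.7 ± 6.4 RPKM in control livers (limma adjusted p = 0.955).

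**Figure D3:**
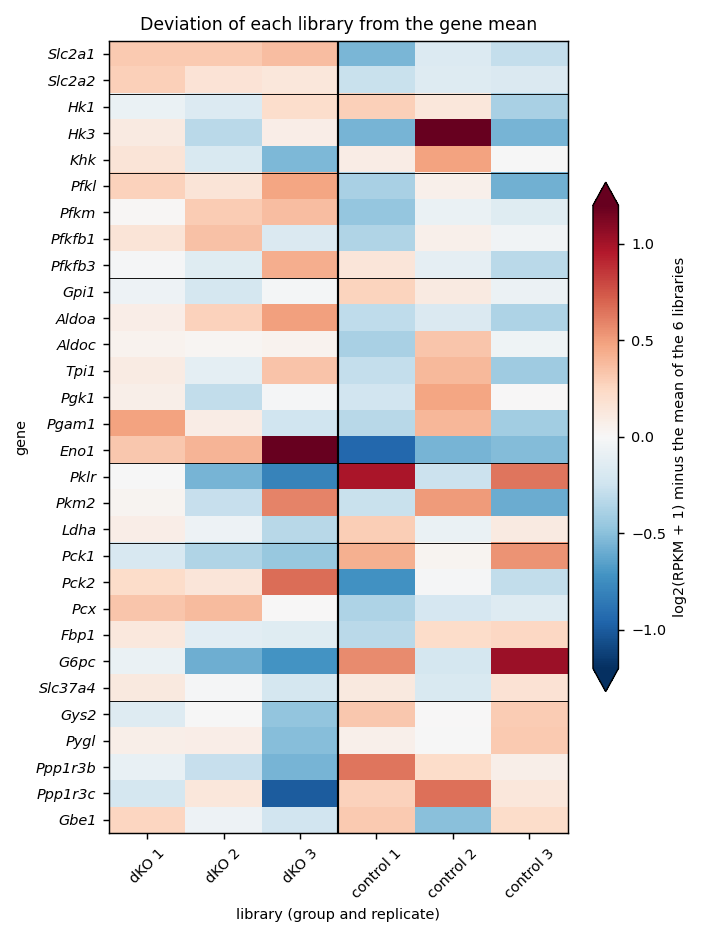
Deviation of each library from the mean of the 6 libraries, as log2(RPKM + 1), for the 30 tested members, with dKO libraries left of the line and control libraries right of it. Control replicate 2 is unlike the other controls at Hk3, Pklr and G6pc, and dKO replicate 3 is the most extreme dKO library at Eno1 and Ppp1r3c.

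Libraries of both groups differed among themselves at many of these genes. The median coefficient of variation of the 35 members was 18.2% in dKO and 20.1% in control libraries, and it was larger in control at 21 members. Control replicate 2 was the highest control at 18 of the 35 members and the lowest at 8, which were Pklr, Ldha, Pck1, G6pc, Slc37a4, Gys2, Pygl and Gbe1. In dKO, replicate 3 was the lowest library at 17 members and the highest at 15, so it was the middle one at few. The same counts over all tested genes are not given, and their first principal component also set dKO replicate 3 apart. These spreads are therefore not shown to be particular to the members.

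Members were also sorted by hand into liver isoforms, extrahepatic or fetal isoforms, and enzymes shared by most cells. The sorting is open to doubt for some. The extrahepatic class took in Pck2, the mitochondrial form, and Ppp1r3c, which had 16.2 to 53.5 RPKM in these livers. Of the 13 liver isoforms 1 rose (Pfkl) and 2 fell (Pck1 and Ppp1r3b), with a median log2 change of -0.24. Of the 14 extrahepatic or fetal isoforms 10 were tested, 2 rose (Aldoa and Slc2a1) and 0 fell by limma (1 at an unadjusted p under 0.05), with a median log2 change of 0.21. Of the 8 shared enzymes 7 were tested and 1 rose (Eno1), with a median of -0.02. The shares called over the whole table were 17.8% higher and 2.17% lower, with a median of 0.23, and classes of this size differ from these shares by few genes. After median-ratio scaling the class medians were -0.53, -0.02 and -0.29. The extrahepatic class thus lay near the median of all genes on both scales, while the liver class lay below it. After quantile normalization the class medians were -0.23, -0.10 and -0.10, against -0.03 for all tested genes, and 2 liver isoforms were higher and 0 lower. The 7 hepatocyte markers had medians of -0.28 as deposited, -0.56 after median-ratio scaling and -0.16 after quantile normalization. The summed level of the liver class was 1630, 1412 and 1255 RPKM in dKO and 1794, 1648 and 2088 RPKM in control livers, without overlap but with the highest dKO library near the lowest control. The summed level of the extrahepatic class was 85.7, 94.5 and 89.8 RPKM in dKO and 80.5, 109 and 75.6 RPKM in control livers, and overlapped. Ppp1r3c was among the largest parts of that sum, and without it, a choice made after seeing the values, the sums were 57, 57.8 and 73.6 RPKM in dKO and 39.8, 55.6 and 38.9 RPKM in control livers, without overlap. No test was made of the difference between the classes.

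A ratio of isoforms within a library does not move with a scaling factor for that library, so 9 pairs, named extrahepatic against liver, were compared. These names were given by hand. Pck2 against Pck1 sets the mitochondrial against the cytosolic form, and Ldha, the liver form of its pair, was sorted as an enzyme shared by most cells. The pairs that share Pfkl are not independent. The ratio was on average higher in dKO in 6 of 9 pairs, and in 4 of them every dKO library lay above every control library. With 3 libraries a group, the exact two-sided permutation test cannot give a p below 0.1, which these 4 pairs had, and the value adjusted over the 9 pairs was 0.225. Pck2 was 0.734%, 0.770% and 1.34% of Pck1 in dKO livers, against 0.155%, 0.5% and 0.258% in control livers, a log2 difference in the ratio of 1.75 ± 0.56 (SE). Gys1, the muscle glycogen synthase, was 4.12%, 5.72% and 6.93% of Gys2 in dKO, against 1.40%, 2.80% and 2.01% in control livers, a difference of 1.46 ± 0.36. Gys1 was below the level tested, at 0.882 to 1.36 RPKM in dKO and 0.423 to 0.67 RPKM in control livers. Pygb, the brain glycogen phosphorylase, was 5.26%, 4.18% and 13.1% of Pygl in dKO, against 2.25%, 3.18% and 2.44% in control livers. That difference was 1.35 ± 0.53, and 0.85 without dKO replicate 3.

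Slc2a1 was 5.90%, 6.42% and 6.83% of Slc2a2 in dKO, against 4.28%, 5.48% and 5.02% in control livers, a difference of 0.38 ± 0.12. In all 4 pairs the second gene (Pck1, Gys2, Pygl or Slc2a2) stayed the more abundant by far. Pkm2 was 9.56%, 10.9% and 26.1% of Pklr in dKO and 3.75%, 16.7% and 3.55% in control livers. Those groups overlapped through control replicate 2, with an exact permutation p of 0.3 and a log2 difference of 1.21 ± 0.86, which became 1.94 if control replicate 2 was left out and 0.75 if dKO replicate 3 was. Pfkp and Pfkm against Pfkl, and Pfkfb3 against Pfkfb1, differed by -0.11 to -0.00 on the log2 scale with SE of 0.18 to 0.53. Ldhb against Ldha differed by 0.83 ± 0.55, with overlap.

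**Figure D4:**
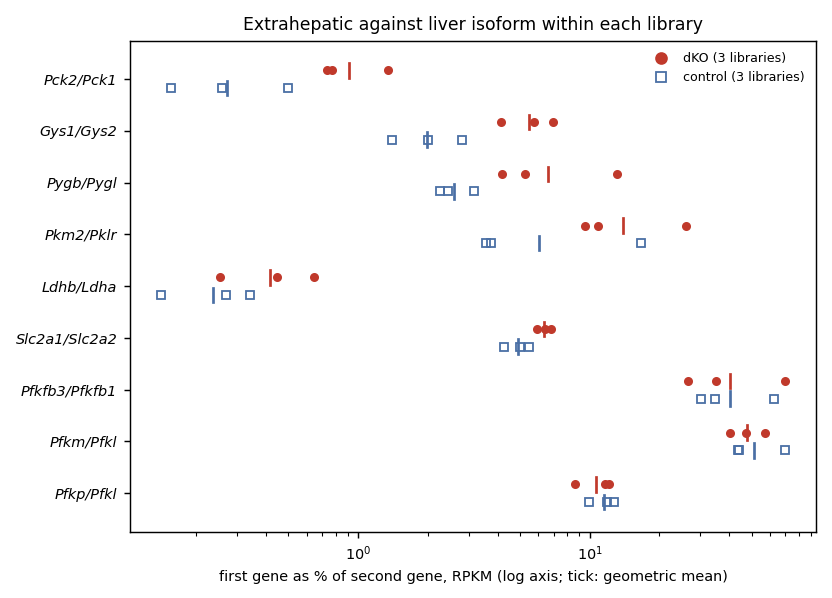
Level of the first isoform as a percentage of the second in each library (log axis), for 9 pairs ordered by the size of the difference. Pairs are named extrahepatic against liver, but Pck2/Pck1 is mitochondrial against cytosolic. Filled circles are the 3 dKO and open squares the 3 control libraries, and ticks are geometric means. The 4 pairs without overlap are Pck2/Pck1, Gys1/Gys2, Pygb/Pygl and Slc2a1/Slc2a2.

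The rest of the pathway was read from lists of genes that are not members. Of 16 tested genes of glycolysis, fructose and pyruvate use, 1 rose and 0 fell by limma (3 had an unadjusted p under 0.05 and a negative change), and 0 rose and 3 fell after median-ratio scaling. Over all tested genes 17.8% rose and 2.17% fell, and after that scaling 7.86% rose and 5.56% fell. The riser was Slc16a1, the lactate and pyruvate carrier MCT1, which measured 40.4, 41.0 and 38.6 RPKM in dKO and 23.4, 23.1 and 30.6 RPKM in control livers, with a log2 change of 0.63 ± 0.14 and a limma adjusted p of 0.0194. The Slc16a1 call was lost after median-ratio scaling (0.174) and quantile normalization (0.0699) and without dKO replicate 1 or 2 (0.0574 and 0.0507) or control replicate 1 (0.0728).

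Of 15 tested genes around gluconeogenesis and the pentose phosphate pathway, 2 rose and 2 fell (1 and 2 after median-ratio scaling). The shares over all tested genes were 17.8% and 2.17% (7.86% and 5.56% after that scaling). Gpt2, a mitochondrial alanine aminotransferase that turns alanine into pyruvate, measured 75.8, 67.1 and 85.1 RPKM in dKO livers, against 28.0, 30.8 and 33.8 RPKM in control livers. The groups were far apart, and the log2 change of 1.27 ± 0.15 (limma adjusted p = 0.00166) stayed called under all 13 alternatives tried (limma adjusted p up to 0.013). Tkt, the transketolase of the pentose phosphate pathway, rose by a log2 change of 0.70 ± 0.13 to 44.1 ± 3.69 RPKM in dKO, against 26.8 ± 2.45 RPKM in control livers (limma adjusted p = 0.0109, and 0.0791 after median-ratio scaling). Got1, the cytosolic aspartate aminotransferase of the malate-aspartate shuttle, measured 41.1, 29.6 and 25.2 RPKM in dKO and 58.9, 128 and 89.6 RPKM in control livers, a log2 change of -1.46 ± 0.29 (limma adjusted p = 0.0143, and 0.0523 without dKO replicate 3). Gpd2, the mitochondrial glycerol-3-phosphate dehydrogenase, fell to 9.01 ± 1.21 RPKM in dKO, against 18.5 ± 3.58 RPKM in control livers, and was called under all 13 alternatives (log2 change -0.95 ± 0.16, limma adjusted p = 0.00818).

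Of 12 tested glycogen genes outside the set, 4 rose and 0 fell by limma (0 at an unadjusted p under 0.05), and 0 rose and 0 fell after median-ratio scaling, against 17.8% of all tested genes called higher. Gyg, the glycogenin that primes the glycogen particle, stood at 8.18 ± 1.23 RPKM in dKO and 4.19 ± 1.24 RPKM in control livers (log2 change 0.85 ± 0.20, limma adjusted p = 0.0215), and its call was lost after median-ratio scaling (0.0535), quantile normalization (0.0612), without a filter (0.0509) and without dKO replicate 3 (0.0743) or control replicate 1 (0.0557). Pygb measured 7.05, 5.65 and 11.7 RPKM in dKO and 2.99, 4.03 and 3.88 RPKM in control livers (log2 change 0.93 ± 0.23, limma adjusted p = 0.0276). The Pygb call was lost after median-ratio scaling (0.051), quantile normalization (0.0683), without a filter (0.0613) and without dKO replicate 1 (0.0536) or control replicate 1 or 3 (0.097 and 0.0653). Phka2, a regulatory subunit of the kinase that activates glycogen phosphorylase, measured 5.26, 4.83 and 5.9 RPKM in dKO and 3.31, 3.76 and 3.34 RPKM in control livers, without overlap (log2 change 0.50 ± 0.13, limma adjusted p = 0.0318). Its call was lost after median-ratio scaling (0.109) and quantile normalization (0.204), with a replicate block (0.0735), without dKO replicate 1 or 3 (0.0868 and 0.0776) and without control replicate 1 or 3 (0.0919 and 0.1). Thus Gyg, Pygb and Phka2 were higher in dKO on the deposited scale while Ppp1r3b was lower, and no other glycogen gene on either list was called lower in that fit. Ppp1r3c was called lower only under the alternatives given above.

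Among lists of markers of other cells, only that of cholangiocytes and progenitors had every tested marker called higher on the deposited scale. Of 10 cholangiocyte and progenitor markers 8 were tested and 8 rose, with 7 called higher after median-ratio scaling and 7 after quantile normalization. The summed level of the 10 was 422 to 1121 RPKM in dKO and 57.6 to 115 RPKM in control livers, highest in dKO replicate 3. Spp1 alone made most of the dKO sums, at 454, 306 and 910 RPKM in dKO and 20.9, 18.7 and 64.7 RPKM in control livers. The summed level of 10 stellate and fibroblast markers was 199 to 334 RPKM in dKO and 181 to 197 RPKM in control livers (1 of 10 called higher). For 10 endothelial markers it was 113 to 130 RPKM in dKO and 107 to 112 RPKM in control livers (0 called by limma, 0 at an unadjusted p under 0.05). Their median log2 change was 0.16, and -0.11 after median-ratio scaling, against 0.23 and -0.01 for all tested genes. For 9 markers of dividing cells the summed level was 59.1 to 61.0 RPKM in dKO and 31.7 to 42.0 RPKM in control livers (3 called higher, 1 after median-ratio scaling). Macrophage markers overlapped at 249 to 363 RPKM in dKO and 153 to 312 RPKM in control livers. Of these 10, 2 were called higher, and 2 higher and 1 lower after median-ratio scaling. The 8 erythroid markers also overlapped, at 185 to 331 RPKM in dKO and 222 to 795 RPKM in control livers (0 of 5 tested called by limma, 0 at an unadjusted p under 0.05). Of 7 hepatocyte markers 2 fell and 5 were not called, and 2 were lower after median-ratio scaling. Their sums, mostly Alb, were 39060 to 45587 RPKM in dKO and 45161 to 58807 RPKM in control livers. The part of these cells in the higher Slc2a1, Aldoa, Eno1 and Pygb was not tested, and in bulk liver fewer cells of a type and less RNA per cell cannot be told apart.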

How the data were processed

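All 6 deposited tables were used (3 dKO, 3 control libraries). Per the labels' protocols, polyadenylated RNA was sheared and sequenced, and per the submitters' processing notes the genome build was mm9. Which aligner, counter and annotation made the values is not given in the sources used here. The deposited values were read as RPKM made by the authors, a unit inferred from the values: 73.1% to 78.3% of 284 to 445 low values per library, among 3973 symbols with 1 annotated transcript, lay within 0.15 of a whole read, against 30% for evenly spread values. The spacing was chosen to fit best, so the unit was not tested, and the depths it gave are estimates. The 6 tables also held 448 positive values far below the worth of 1 read, so not all are whole reads. No 2 libraries held identical columns.

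The members and lists were chosen with earlier results of these data known. All genes averaging 1 RPKM or more entered a fit of log2(RPKM + 1) with limma 3.58.1 in R 4.3.3 (trend, robust moderation, no block). Also tried were adding 0.1 before the log, dropping the filter, a filter of 1 RPKM in 3 or more libraries, plain (not robust) moderation, median-ratio scaling from tested genes, quantile normalization, a replicate block and leaving out each library. All members were named, with Stk3, Stk4, the partners of isoform pairs and, per list of other pathway genes, up to 3 called genes in each direction with the smallest p. A few genes of the lists and the isoform pairs that need them are not reported here and are left out of the list and pair counts. The fit was tested on simulated data. Symbols were matched to GENCODE M21 and RefSeq (21822 of 22068), and near copies were found with BLAST. Python 3.11.15 and matplotlib 3.10.9 were used for the rest.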

Additional observations from a re-analysis of the deposited data

How the results depend on the processing

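Of 390 values for 30 members under 13 alternatives, 314 kept direction and call, 37 lost a call, 10 gained one and 29 changed sign. Only called members could lose a call, and most values that kept theirs were of uncalled members. Of the 13 alternatives, the call was lost in 9 for Pfkl, 9 for Ppp1r3b, 8 for Aldoa, 8 for Pck1, 2 for Slc2a1 and 1 for Eno1. Genes called higher (1965) numbered 866 after median-ratio scaling and 727 after quantile normalization, and 763 to 1992 with 1 library left out. Genes called lower (240) numbered 613 and 554 after these scalings, 145 without a filter, and 90 to 241 with 1 library left out. The lowest counts, 763 and 90, came without control replicate 1, and without control replicate 3 there were 957 and 116, without dKO replicate 3 988 and 126, without dKO replicate 1 1153 higher and without dKO replicate 2 151 lower. Members called higher (4) numbered 1 after median-ratio scaling, 2 with the replicate block and 1 to 5 with 1 library left out (1 without control replicate 1, 2 without dKO replicate 2 or control replicate 3). Members called lower (2) numbered 0 without a filter, 0 after quantile normalization, 1 without robust moderation and 0 to 3 with 1 library left out (0 without dKO replicate 1 or 3 or control replicate 1 or 3, 1 without dKO replicate 2). The cause was not tested.

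Signs turned only among uncalled values. Log2 changes after median-ratio scaling were -0.02 for Pfkfb1, -0.02 for Pfkfb3, -0.14 for Aldoc, -0.07 for Tpi1, -0.03 for Pgam1, -0.01 for Pkm2 and -0.11 for Stk4. After quantile normalization they were -0.05 for Pfkfb1, -0.16 for Pfkfb3, -0.27 for Aldoc, -0.02 for Pgam1, -0.04 for Pkm2, 0.10 for Fbp1 and -0.16 for Stk4, and Hk3 had 0.02 with a pseudocount of 0.1. With 1 library left out, log2 changes ranged over -0.23 to 0.11 for Hk1, -0.39 to 0.51 for Hk3, -0.10 to 0.26 for Aldoc, -0.32 to 0.04 for Pgk1, -0.01 to 0.54 for Pkm2, -0.29 to 0.00 for Fbp1, -0.18 to 0.02 for Slc37a4 and -0.28 to 0.13 for Gbe1. Replicate numbers gave no sign of pairing (same-number correlations of deviations -0.081, -0.101 and -0.01 across 11062 genes, and 0.099 between dKO replicate 1 and control replicate 2). Such values cannot show whether samples shared a batch or handling. The replicate block gave 1513 higher and 202 lower genes. Depth limits members under 1 RPKM most, and counting error could not be given for values without counts.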

Other observations

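Regulators of glucose metabolism were read from a list of 31 genes, all tested, of which 6 rose and 1 fell on the deposited scale and 4 rose and 4 fell after median-ratio scaling. Over all tested genes 17.8% rose and 2.17% fell on the deposited scale, and 7.86% rose and 5.56% fell after that scaling. The list lay near these shares on the deposited scale. Txnip, a glucose-induced inhibitor of glucose uptake, measured 43.3, 39.0 and 60.5 RPKM in dKO livers, against 23.4, 26.6 and 25.8 RPKM in control livers (log2 change 0.86 ± 0.17 (SE), limma adjusted p = 0.0131, and 0.0549 without control replicate 1). Onecut1, a transcription factor of liver and biliary development, stood at 12.5 ± 5.33 RPKM in dKO and 4.17 ± 1.01 RPKM in control livers, with 18.6 RPKM in dKO replicate 3 (limma adjusted p = 0.0144, and 0.0596 without control replicate 1). Foxo3, a transcription factor that insulin signalling restrains, stood at 5.27 ± 0.949 RPKM in dKO and 2.64 ± 0.521 RPKM in control livers (limma adjusted p = 0.0163, 0.0587 without control replicate 1 and 0.059 after quantile normalization). Igfbp1, a secreted binding protein that insulin represses, fell to 77.6, 67.9 and 130 RPKM in dKO, against 149, 196 and 233 RPKM in control livers (log2 change -1.10 ± 0.27, limma adjusted p = 0.0258). Its call was lost without dKO replicate 1 or 2 (0.0722 and 0.0663), without control replicate 3 (0.0823), without a filter (0.0575) and after quantile normalization (0.0663).

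Hkdc1, a hexokinase domain gene that was below the level tested and was picked after its values were seen, had 0.643, 0.539 and 1.35 RPKM in dKO livers, against 0.0166, 0.194 and 0.0822 RPKM in control livers, without overlap. Without a filter on low values Hkdc1 differed by 0.73 ± 0.17 on the log2 scale (limma adjusted p = 0.0472).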
